A study of Mus musculus with 9 samples.

Results

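The genes described here are 44 mouse genes of mitosis, the step of the cell cycle in which the copied chromosomes are separated into the daughter cells. They were chosen by name, and probes were matched to them through the RefSeq accession each probe carries. All 44 were among the 14034 genes tested. RNA came from mouse colon organoids, epithelial structures grown in culture from colon, and was hybridised to 9 single-colour microarrays in 3 groups of 3: untreated organoids at 0 weeks, organoids at 12 weeks of treatment with inflammatory reagents, and organoids at 60 weeks of that treatment. The labels do not name the reagents, the mouse strain or its age, and they do not say whether the 3 replicates of a group came from separate animals or cultures, so p-values measure the spread between these samples, which may be technical. No untreated culture of 12 or 60 weeks was analysed, so treatment and time in culture cannot be told apart. RNA was taken from whole cultures, in which fewer dividing cells and less RNA per dividing cell cannot be told apart.

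Mitosis is driven by CDK1 bound to B-type cyclins, and by the Aurora, Polo and TTK kinases. Kinetochores tie the chromosomes to spindle microtubules, and the spindle checkpoint holds back the anaphase-promoting complex until every chromosome is attached. That complex then marks securin and cyclin B for destruction, sister chromatids part, and the cell is divided by cytokinesis. In the colon, division belongs to the stem and progenitor cells at the crypt base, and cells that differentiate leave the cycle.

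Many of these genes are transcribed together late in the cycle, through promoters that carry a CCAAT box and the cell cycle genes homology region, a short element read by the MuvB complexes. Promoter windows of 300 bases (250 before the transcription start and 50 after it) were taken from RefSeq on build GRCm38.p6 for 37 of the 44 genes, which gave 40 windows. No window was matched for Foxm1, Kif20a, Smc4, Incenp, Aurkb, Tpx2 or Cdc25c. Windows of 5 genes are shown as examples, and the shares over all matched genes follow below. Those of Cdc20, Cks1b and Ccnb2 hold both elements, although among these Cks1b alone passed the test at 60 against 0 weeks, and those of Mad2l1 and Nuf2, with the largest falls at 60 against 0 weeks, hold neither. Capitals mark CCAAT, and the homology region as TTTGAA or TTCGAA, each searched on both strands, so that TTCAAA in the Cks1b window is TTTGAA on the other strand. The windows are chr4:118437294-118437593 on the minus strand for Cdc20, chr3:89418242-89418541 on the minus strand for Cks1b, chr9:70421505-70421804 on the minus strand for Ccnb2, chr6:66534971-66535270 on the plus strand for Mad2l1 and chr1:169531415-169531714 on the minus strand for Nuf2.
Cdc20: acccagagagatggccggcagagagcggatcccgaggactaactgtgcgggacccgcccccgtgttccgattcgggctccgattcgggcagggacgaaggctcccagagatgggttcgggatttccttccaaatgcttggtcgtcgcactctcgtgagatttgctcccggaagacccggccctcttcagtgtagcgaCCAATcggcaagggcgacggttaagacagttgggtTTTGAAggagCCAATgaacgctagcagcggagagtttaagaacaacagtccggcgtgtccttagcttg
Cks1b: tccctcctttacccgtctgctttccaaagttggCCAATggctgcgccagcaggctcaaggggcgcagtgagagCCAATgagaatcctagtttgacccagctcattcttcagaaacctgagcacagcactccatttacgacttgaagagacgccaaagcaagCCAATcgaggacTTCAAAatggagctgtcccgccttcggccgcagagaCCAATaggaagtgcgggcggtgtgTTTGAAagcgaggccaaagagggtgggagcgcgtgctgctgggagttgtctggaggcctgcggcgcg
Ccnb2: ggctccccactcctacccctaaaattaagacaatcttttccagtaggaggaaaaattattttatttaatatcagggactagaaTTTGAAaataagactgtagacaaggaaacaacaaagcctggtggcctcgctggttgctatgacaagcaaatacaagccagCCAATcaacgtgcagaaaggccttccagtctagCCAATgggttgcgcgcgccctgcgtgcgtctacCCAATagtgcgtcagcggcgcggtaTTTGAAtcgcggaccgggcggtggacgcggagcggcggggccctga
Mad2l1: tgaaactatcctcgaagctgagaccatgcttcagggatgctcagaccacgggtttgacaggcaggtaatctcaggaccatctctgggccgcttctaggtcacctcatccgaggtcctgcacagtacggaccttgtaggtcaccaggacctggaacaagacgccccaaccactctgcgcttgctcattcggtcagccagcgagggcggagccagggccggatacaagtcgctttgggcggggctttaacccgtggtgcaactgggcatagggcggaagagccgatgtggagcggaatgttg
Nuf2: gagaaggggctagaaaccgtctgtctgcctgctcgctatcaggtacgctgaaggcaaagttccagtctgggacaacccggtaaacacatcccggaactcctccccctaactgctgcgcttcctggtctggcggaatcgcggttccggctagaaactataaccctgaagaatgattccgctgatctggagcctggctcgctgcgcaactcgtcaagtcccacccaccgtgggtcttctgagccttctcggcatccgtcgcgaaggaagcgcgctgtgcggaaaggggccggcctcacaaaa

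Counting from the transcription start, the homology region of Cdc20 began at -18, between CCAAT boxes that began at -53 and -8. Cks1b held the region at -77 and -17 and 4 CCAAT boxes, and Ccnb2 held it at -167 and 4 with 3 CCAAT boxes. The motifs overlapped in 0 of these windows. Over all matched mitotic genes, 32 of 40 windows (80%) held the homology region, against 19.2% of 32851 RefSeq promoter windows of this length and 14.4% of the windows of tested genes. CCAAT was found in 32 of 40 windows (80%), against 37.4% of all windows, and both motifs in 29 of 40 (72.5%), against 7.52% of all windows. Neither motif lay in 5 windows, those of Nuf2, Nusap1, Mad2l1, Pttg1 and Birc5. Among the mitotic genes that were lower at 60 than at 0 weeks, 12 of 16 windows (75%) held the homology region, against 20 of 24 windows (83.3%) of the other mitotic genes. The 16 windows belong to 13 genes, since Ect2, Prc1 and Bub3, which hold the region, are each counted more than once. Both motifs lay in 10 of the 16 windows (62.5%) and in 19 of the 24 (79.2%), and neither in 3 and 2. These are matches of letters in a window and no measure of binding.

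Levels below are log2 signals relative to each array's 75th percentile of all non-control probes, and a level of 0 means a signal equal to that percentile. Each gene is represented by 1 probe (14 of the 44 have others above background, which are given where they bear on a result), and levels of different genes are not compared, since probes differ in brightness for the same amount of RNA. Means are given ± SD over n = 3 arrays, log2 fold changes ± SE from limma fitted across all tested genes, and a gene was said to have risen or fallen where limma's Benjamini-Hochberg adjusted p over all tested genes was under 0.05. The scanner software called 43 of the 44 genes well above background on all 9 arrays, and Aurkb on 3. Between 49.2% and 52.7% of all probes were above background per array. All 8 colon epithelial markers were above background on every array, with a summed level of 1712 to 2026 times the array's 75th percentile at 0 weeks, 1693 to 1931 at 12 weeks and 1824 to 2020 at 60 weeks. Of 8 leukocyte markers, Cd3e, Itgam and Csf1r were above background on every array and Ptprc, Cd79a and Laptm5 on none. The leukocyte sum was 16.7 to 23.4 at 0 weeks, 24.4 to 48.0 at 12 weeks and 27.4 to 34.4 at 60 weeks, and its part in the results was not tested. Sums are of linear signals, so the brightest marker weighs most. Of the 4 leukocyte markers tested singly, 0 rose in any comparison. At 60 weeks 1 of them fell against 0 weeks and 1 against 12 weeks (25%, against 16.1% and 17.6% of all tested genes). Their median log2 fold change was 0.02 at 12 and -0.04 at 60 against 0 weeks, with 2 of 4 below 0 in each. Of 8 stromal markers, 1 was above background on every array and Dcn, Lum, Pdgfra and Pdgfrb were so on none, and Vim was so on 3 arrays, all of 12 weeks. The stromal sum was 0.249 to 0.332 at 0 weeks, 0.307 to 0.445 at 12 weeks and 0.274 to 0.321 at 60 weeks. Of 4 endothelial markers 2 were above background on every array, and of 4 markers of enteric glia and neurons 3 were. In order of time, the endothelial sums were 8.58 to 10.9, 6.84 to 8.91 and 8.14 to 11.3. Those of glia and neurons were 1.01 to 1.04, 0.688 to 0.842 and 0.609 to 0.944. The part of these signals in the results was not tested.

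At 60 weeks, 16 of the 44 mitotic genes were lower than at 0 weeks (36.4%) and 1 was higher, where 16.1% of all tested genes were lower and 16.7% higher. The median log2 fold change of the 44 was -0.30, against -0.04 over all tested genes, and 37 of the 44 lay below 0. The genes that fell belonged to the spindle checkpoint (Mad2l1, Bub3), the outer kinetochore (Nuf2, Ndc80), the kinase and CDK partners (Ttk, Cks1b, Cks2), the spindle midzone and cytokinesis (Kif20a, Prc1, Ect2, Anln), the chromosomal passenger complex (Birc5), chromosome structure (Smc2, Smc4, Hmgb2) and the transcription factor Foxm1. Kif2c rose. The largest fall was that of Mad2l1, by 0.99 on the log2 scale, or 49.8%. The 3 arrays of each time did not overlap for 26 of the 44 genes (59.1%), against 56.5% of all tested genes. In all, 32.8% of tested genes were called in this comparison and 38.6% of the mitotic genes. The count of 17 was 11 without replicate 2 of 0 weeks, without replicate 3 of 0 weeks or without replicate 1 of 60 weeks. It was 6 with slide row as a block (Mad2l1, Ttk, Nuf2, Ect2, Cks1b and Prc1, all lower), a fit in which 60 and 0 weeks share no row. All 16 falls were larger in that fit and the median of the 44 genes was -0.68, so calls ended with a larger log2 fold change, as for Hmgb2 (-1.11, adjusted p = 0.0525), Foxm1 (-0.73, adjusted p = 0.0554) and Smc2 (-0.70, adjusted p = 0.0957). Kif2c, the gene that rose, was at 0.05 (adjusted p = 0.897). Each 60 against 0 weeks value of that fit is the sum of 2 differences within rows, and replicate 3 of 60 weeks has no part. These are replicate 1 of 12 weeks minus 0 weeks and, in another row, 60 minus 12 weeks. The 44 genes were low on replicate 1 and high on replicate 2 of 12 weeks (medians -0.30 and 0.36 against the other 2 arrays). Both shifts make such a sum lower.

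At 12 weeks, the 44 genes were divided in direction. Compared with 0 weeks, 4 of the 44 rose (Aurka, Kif2c, Cdca8 and Smc2) and 9 fell (Mad2l1, Cenpf, Kif11, Cks1b, Hmgb2, Prc1, Anln, Pttg1 and Smc4). That is 29.5% called, against 41.8% of all tested genes, with 9.09% higher against 19.1% of all genes and 20.5% lower against 22.7%. The median log2 fold change was -0.08, against -0.06 over all tested genes, with 27 of 44 below 0 and a range of -0.81 to 0.59. Groups did not overlap for 19 genes (43.2%), against 54.6% of all tested genes. The count of 13 was 7 without replicate 1 and without replicate 2 of 0 weeks, 5 without replicate 3 of 0 weeks, and 8 and 5 without replicates 1 and 3 of 12 weeks. With slide row as a block, this comparison rested on replicate 1 of 12 weeks alone. No other array of 12 weeks shared a row with 0 weeks. Replicate 1 was below the 0 weeks mean for 37 of the 44 genes, with a median of -0.27. The median log2 fold change was 0.04 without replicate 1 of 12 weeks and -0.17 without replicate 2 of 12 weeks. Without that replicate 2, Ccnb1, Ccnb2, Cdk1, Racgap1, Cdc25c and Hmmr also fell, and the calls of Aurka, Kif11 and Cdca8 ended. Kif2c and Smc2 were then the only genes that rose.

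Between 60 and 12 weeks, 12 mitotic genes fell (27.3%) and 0 rose, where 17.6% of all tested genes were lower and 20.7% higher. At an unadjusted limma p under 0.05 there were 15 of the 44 mitotic genes, against 6794 of the 14034 tested genes. The 12 were Aurka, Mad2l1, Ttk, Nuf2, Ndc80, Kif20a, Ect2, Cks1b, Cks2, Birc5, Smc2 and Foxm1. The median of the 44 was -0.19, against 0.02 over all tested genes, and 31 of the 44 lay below 0. Groups did not overlap for 14 genes (31.8%), against 47.3% of all tested genes, and 38.3% of all tested genes were called in either direction. Without replicate 2 of 12 weeks the median was -0.06, 12 genes fell and 4 rose (Ccnb2, Cenpf, Pttg1 and Cdc25c). The 12 and 60 weeks values below share the 0 weeks arrays, and they are given side by side for each gene.

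**Figure D1:**
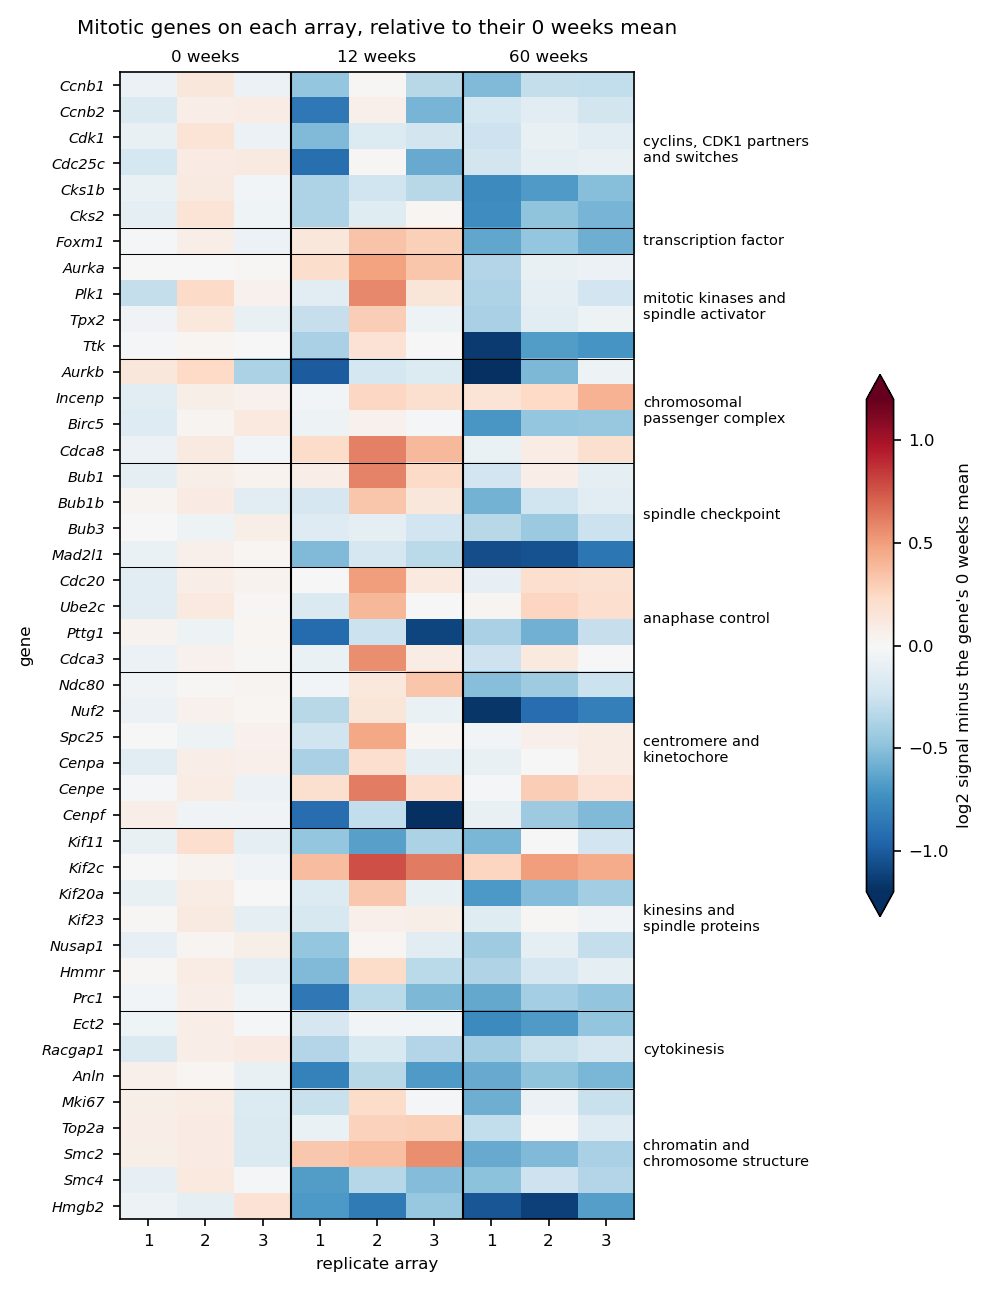
Log2 signal of each of the 44 mitotic genes (rows, in role groups) on each of the 9 arrays (columns, by weeks and replicate), minus that gene's mean at 0 weeks. Blue is lower and red higher than the 0 weeks mean. Mad2l1, Nuf2, Ttk and Hmgb2 are among the darkest blue rows at 60 weeks, Kif2c is red on all 6 arrays of 12 and 60 weeks, and replicate 2 of 12 weeks is redder than its 2 replicates in most rows.

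**Figure D2:**
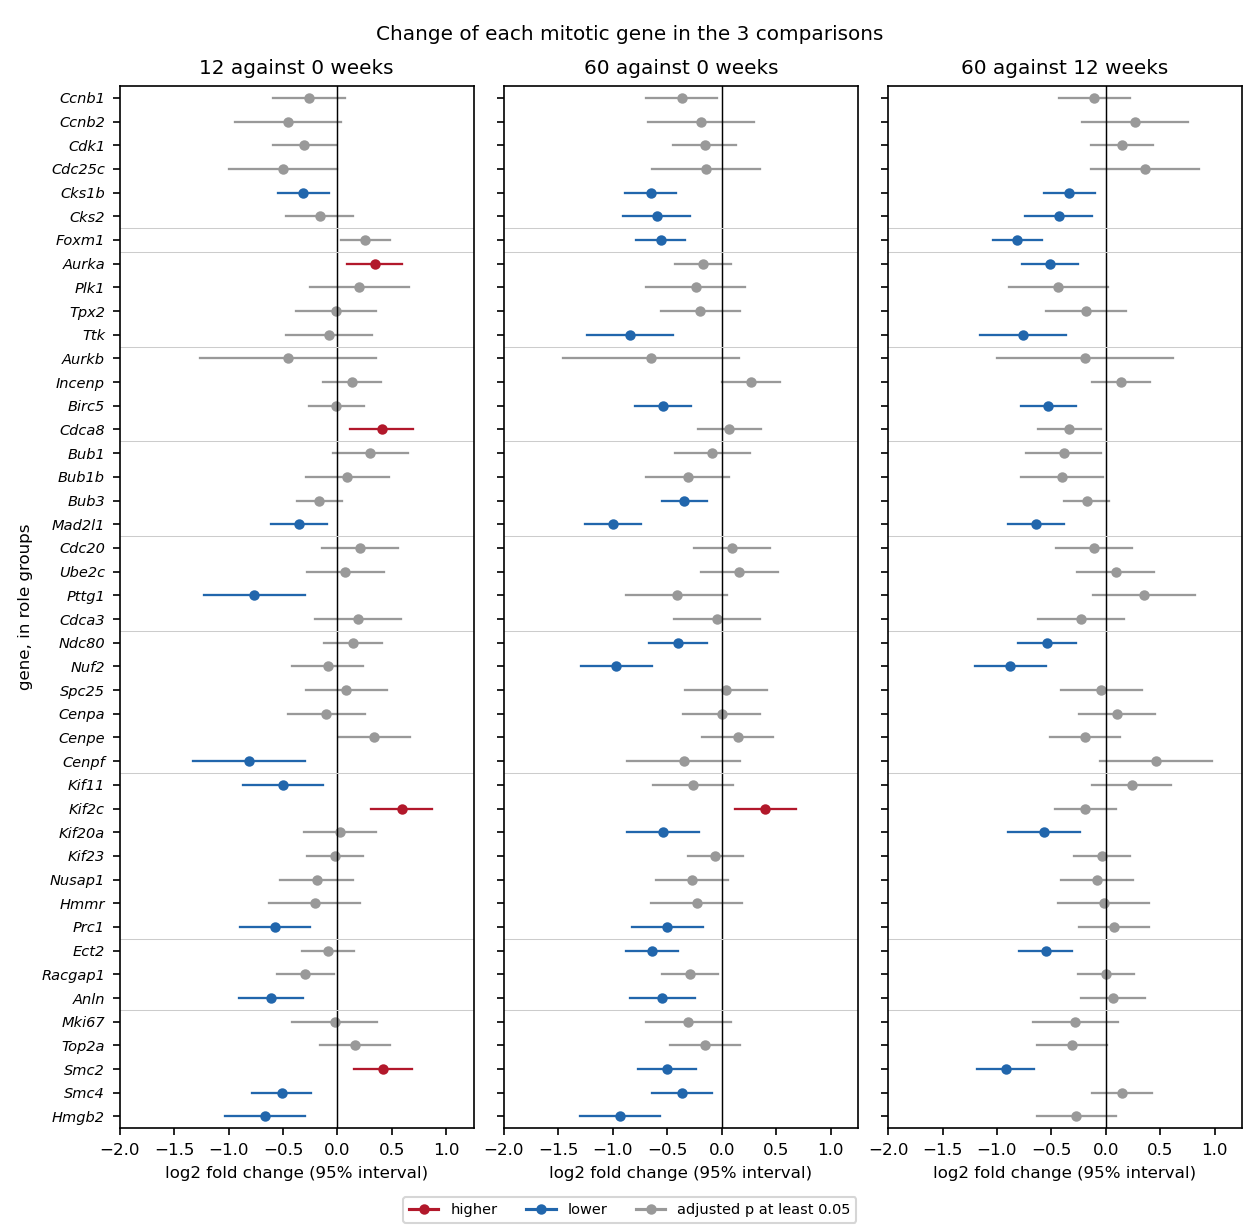
Log2 fold change of each mitotic gene (points) with its 95% interval (lines) in the 3 comparisons, from limma. Coloured genes had an adjusted p under 0.05: 4 higher and 9 lower at 12 against 0 weeks, 1 higher and 16 lower at 60 against 0 weeks, and 12 lower at 60 against 12 weeks.

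The genes of the CDK1 switch are the B-type cyclins Ccnb1 and Ccnb2, the kinase Cdk1, the phosphatase Cdc25c that activates it, and Cks1b and Cks2, small proteins that dock CDK complexes onto phosphorylated substrates. All 6 representative probes had a log2 fold change below 0 at 60 and at 12 against 0 weeks, and the test was passed by Cks1b and Cks2 at 60 weeks and by Cks1b at 12 weeks. Both other Ccnb1 probes lay above 0 at 12 against 0 weeks, at 0.10 and 0.17, and neither passed (adjusted p = 0.607 and 0.422). Cks1b read 4.87, 5.06 and 4.92 on the 0 weeks arrays, 4.58, 4.72 and 4.62 on the 12 weeks arrays, and 4.19, 4.27 and 4.45 on the 60 weeks arrays. The 3 times were stepped downward with no overlap between any pair of groups. It fell at 60 weeks by 0.65 ± 0.10 relative to 0 weeks (adjusted p = 0.00191) and by 0.34 ± 0.10 relative to 12 weeks (adjusted p = 0.032), and at 12 weeks by 0.31 ± 0.10 relative to 0 weeks (adjusted p = 0.0384). The call at 12 against 0 weeks ended without any 1 of replicates 1, 2 and 3 of 0 weeks, 1 and 3 of 12 weeks, or 1 and 2 of 60 weeks (adjusted p = 0.0509 to 0.138), and that at 60 against 12 weeks without any 1 of 5 arrays (adjusted p = 0.0517 to 0.116): replicate 3 of 0 weeks, 1 and 3 of 12 weeks, and 1 and 2 of 60 weeks. A second Cks1b probe gave -0.65, -0.25 and -0.41 for 60 against 0, 60 against 12 and 12 against 0 weeks, and it did not pass at 60 against 12 weeks (adjusted p = 0.101).

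Cks2 read 1.61, 1.88 and 1.67 on the 0 weeks arrays, 1.35, 1.57 and 1.75 on the 12 weeks arrays, and 0.97, 1.24 and 1.16 on the 60 weeks arrays. All 60 weeks arrays lay below all others, while 0 and 12 weeks overlapped. It fell by 0.60 ± 0.13 at 60 against 0 weeks (adjusted p = 0.0107) and by 0.43 ± 0.13 at 60 against 12 weeks (adjusted p = 0.0346). The second of these calls ended without replicate 3 of 0 weeks, replicate 3 of 12 weeks, or replicate 1 or 3 of 60 weeks (adjusted p = 0.0537 to 0.119).

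The partners these proteins dock did not pass the test. Cdk1 read 3.01, 3.25 and 3.02 on the 0 weeks arrays, 2.57, 2.93 and 2.87 on the 12 weeks arrays, and 2.84, 3.00 and 2.97 on the 60 weeks arrays. Both treated groups lay just below the 0 weeks arrays and overlapped each other. The log2 fold change was -0.16 at 60 against 0 weeks (95% interval -0.44 to 0.13, adjusted p = 0.375) and -0.30 at 12 against 0 weeks (-0.59 to -0.01, adjusted p = 0.0848). Another Cdk1 probe passed in both, at -0.52 (adjusted p = 0.0263) and -0.44 (adjusted p = 0.0386), so the probes of this gene differ in call. Ccnb1 read 3.13, 3.34 and 3.13 on the 0 weeks arrays, 2.74, 3.22 and 2.87 on the 12 weeks arrays, and 2.68, 2.92 and 2.91 on the 60 weeks arrays. Its 60 weeks arrays lay below the 0 weeks arrays, with a log2 fold change of -0.37 ± 0.14 that missed the threshold (adjusted p = 0.083). Ccnb2 and Cdc25c spread widely at 12 weeks (SD 0.47 each), with replicate 2 highest, and had log2 fold changes of -0.19 and -0.14 at 60 against 0 weeks.

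Foxm1 encodes the forkhead factor that joins MuvB at promoters of this kind late in the cycle. It read 1.22, 1.32 and 1.17 on the 0 weeks arrays, 1.37, 1.58 and 1.53 on the 12 weeks arrays, and 0.61, 0.77 and 0.65 on the 60 weeks arrays. The 60 weeks arrays lay below all others and the 12 weeks arrays above all others. It fell by 0.81 ± 0.10 at 60 against 12 weeks (adjusted p = 0.000571) and by 0.56 ± 0.10 at 60 against 0 weeks (adjusted p = 0.0032). The difference of 0.26 ± 0.10 at 12 against 0 weeks missed the threshold (adjusted p = 0.0659). A second Foxm1 probe also fell, by 0.93 at 60 against 0 weeks and by 0.96 at 60 against 12 weeks (adjusted p = 0.000304 and 0.000312), but was at 0.03 at 12 against 0 weeks (adjusted p = 0.832).

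Among the kinases of spindle assembly, Aurka acts at the centrosome with its activator Tpx2, Plk1 in entry, spindle and division, and Ttk (MPS1) at the kinetochore as the kinase that starts checkpoint signalling. Aurka read 3.44, 3.44 and 3.46 on the 0 weeks arrays, 3.65, 3.93 and 3.78 on the 12 weeks arrays, and 3.09, 3.36 and 3.38 on the 60 weeks arrays. The 12 weeks arrays were the highest and the 60 weeks arrays the lowest, with no overlap. It fell by 0.51 ± 0.11 at 60 against 12 weeks (adjusted p = 0.00871) and rose by 0.34 ± 0.11 at 12 against 0 weeks (adjusted p = 0.0393), and was at -0.17 at 60 against 0 weeks (95% interval -0.43 to 0.08, adjusted p = 0.275). The rise ended without any 1 of the 3 arrays of 0 weeks or of replicates 2 and 3 of 12 weeks (adjusted p = 0.0694 to 0.105).

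Ttk read -1.97, -1.92 and -1.94 on the 0 weeks arrays, -2.33, -1.78 and -1.95 on the 12 weeks arrays, and -3.09, -2.61 and -2.65 on the 60 weeks arrays. The 60 weeks arrays were below all 6 others, and the 12 weeks arrays spanned the 0 weeks ones. It fell by 0.84 ± 0.17 at 60 against 0 weeks (adjusted p = 0.00716) and by 0.76 ± 0.17 at 60 against 12 weeks (adjusted p = 0.0101). With normexp background correction the second value was -0.29 (adjusted p = 0.12). Plk1 and Tpx2 were at -0.24 and -0.19 at 60 against 0 weeks (adjusted p = 0.388 and 0.38).

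The chromosomal passenger complex joins the kinase Aurkb to Incenp, its scaffold, and to survivin (Birc5) and borealin (Cdca8), which place it at centromeres. Of its members, Birc5 alone was called at 60 against 0 weeks on the representative probes, while Incenp and Cdca8 had log2 fold changes above 0. Birc5 read 5.26, 5.45 and 5.53 on the 0 weeks arrays, 5.35, 5.46 and 5.40 on the 12 weeks arrays, and 4.71, 4.95 and 4.96 on the 60 weeks arrays. The 0 and 12 weeks arrays overlapped, and all 60 weeks arrays were below them. It fell by 0.54 ± 0.11 at 60 against 0 weeks (adjusted p = 0.00718) and by 0.53 ± 0.11 at 60 against 12 weeks (adjusted p = 0.00737). Incenp read 4.67, 4.87 and 4.85 on the 0 weeks arrays, 4.77, 5.04 and 4.99 on the 12 weeks arrays, and 4.97, 5.03 and 5.21 on the 60 weeks arrays. The 60 weeks arrays lay above the 0 weeks arrays, and the log2 fold change of 0.27 ± 0.12 missed the threshold (adjusted p = 0.108). A second Incenp probe passed at 0.37 (adjusted p = 0.028).

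Cdca8 read 4.07, 4.26 and 4.11 on the 0 weeks arrays, 4.37, 4.75 and 4.53 on the 12 weeks arrays, and 4.07, 4.24 and 4.34 on the 60 weeks arrays. The 12 weeks arrays lay above the rest. It rose by 0.41 ± 0.13 at 12 against 0 weeks (adjusted p = 0.0319) and was at 0.07 at 60 against 0 weeks (95% interval -0.22 to 0.36). Its rise ended without any 1 of the 3 arrays of 0 weeks or of replicates 2 and 3 of 12 weeks (adjusted p = 0.0513 to 0.0961), and its other probe gave 0.42 (adjusted p = 0.0571). At 60 against 12 weeks the value was -0.34 (adjusted p = 0.0649), and -0.56 on the other probe (adjusted p = 0.0217). Aurkb was above background on replicates 1 and 2 of 0 weeks and replicate 3 of 60 weeks only. Its mean was -4.35 at 0 weeks, -4.81 at 12 weeks, where no array was well above background, and -5.00 at 60 weeks. The groups overlapped, and it passed in none of the 3 comparisons (adjusted p = 0.324 at 12 against 0 weeks).

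The spindle checkpoint genes encode MAD2 (Mad2l1), which locks onto CDC20, BUBR1 (Bub1b) and BUB3, which with MAD2 form the inhibitor of the anaphase-promoting complex, and the kinase BUB1, which gathers them at kinetochores. Mad2l1 read 3.51, 3.65 and 3.61 on the 0 weeks arrays, 3.06, 3.39 and 3.27 on the 12 weeks arrays, and 2.52, 2.54 and 2.72 on the 60 weeks arrays. The 3 times formed separate steps, each lower than the one before. The level fell by 0.99 ± 0.11 at 60 against 0 weeks (adjusted p = 0.000349), by 0.64 ± 0.11 at 60 against 12 weeks (adjusted p = 0.00333) and by 0.35 ± 0.11 at 12 against 0 weeks (adjusted p = 0.0351). The call at 12 weeks ended without any 1 of the 3 arrays of 0 weeks, of replicates 1 and 3 of 12 weeks or of replicate 1 of 60 weeks (adjusted p = 0.054 to 0.112). Both other Mad2l1 probes missed the threshold at 60 against 12 weeks, at -0.30 and -0.75 (adjusted p = 0.109 and 0.114), and one of them missed it at 12 against 0 weeks, at -0.96 (adjusted p = 0.0521).

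Bub3 read 4.72, 4.66 and 4.79 on the 0 weeks arrays, 4.57, 4.61 and 4.49 on the 12 weeks arrays, and 4.39, 4.28 and 4.46 on the 60 weeks arrays. Here too the groups stepped down with no overlap. Bub3 fell by 0.34 ± 0.09 at 60 against 0 weeks (adjusted p = 0.0199), a call that ended without replicates 1 or 3 of 0 weeks or replicates 1 or 2 of 60 weeks (adjusted p = 0.0591 to 0.0751). Bub1 and Bub1b were at -0.09 and -0.31 at 60 against 0 weeks and at 0.30 and 0.09 at 12 against 0 weeks, and neither passed.

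Downstream of the checkpoint stand Cdc20, the activator of the anaphase-promoting complex, Ube2c, its ubiquitin-conjugating enzyme, and securin (Pttg1), its substrate and the inhibitor of separase. Cdca3, a protein known for its part in mitotic entry, was grouped with them here. At 60 against 0 weeks, 0 of these 4 were called, against 32.8% of all tested genes. At an unadjusted limma p under 0.05 there were 0 of the 4, against 6140 of 14034 tested genes. Ube2c read 4.03, 4.29 and 4.18 on the 0 weeks arrays, 3.99, 4.56 and 4.16 on the 12 weeks arrays, and 4.20, 4.42 and 4.36 on the 60 weeks arrays, with all groups overlapping. Its log2 fold change at 60 against 0 weeks was 0.16 (95% interval -0.19 to 0.52, adjusted p = 0.453). That of Cdc20 was 0.09 (95% interval -0.26 to 0.44) and that of Cdca3 -0.04 (95% interval -0.44 to 0.35). These intervals leave room for a change of either sign, and none of the 3 intervals reaches -0.99, the log2 fold change of Mad2l1. Pttg1 read 5.56, 5.46 and 5.54 on the 0 weeks arrays, 4.59, 5.26 and 4.41 on the 12 weeks arrays, and 5.13, 4.94 and 5.24 on the 60 weeks arrays. Both treated groups lay below the 0 weeks arrays, and replicate 2 of 12 weeks lay well above its replicates. At 60 against 0 weeks Pttg1 was at -0.41 (95% interval -0.88 to 0.05, adjusted p = 0.155), and on another probe at -0.56 (adjusted p = 0.0989). It fell by 0.76 ± 0.20 at 12 against 0 weeks (adjusted p = 0.0177). That call ended without replicates 1 or 3 of 0 weeks or replicates 1 or 3 of 12 weeks (adjusted p = 0.0532 to 0.0597), and another Pttg1 probe gave -0.09 (adjusted p = 0.771).

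**Figure D3:**
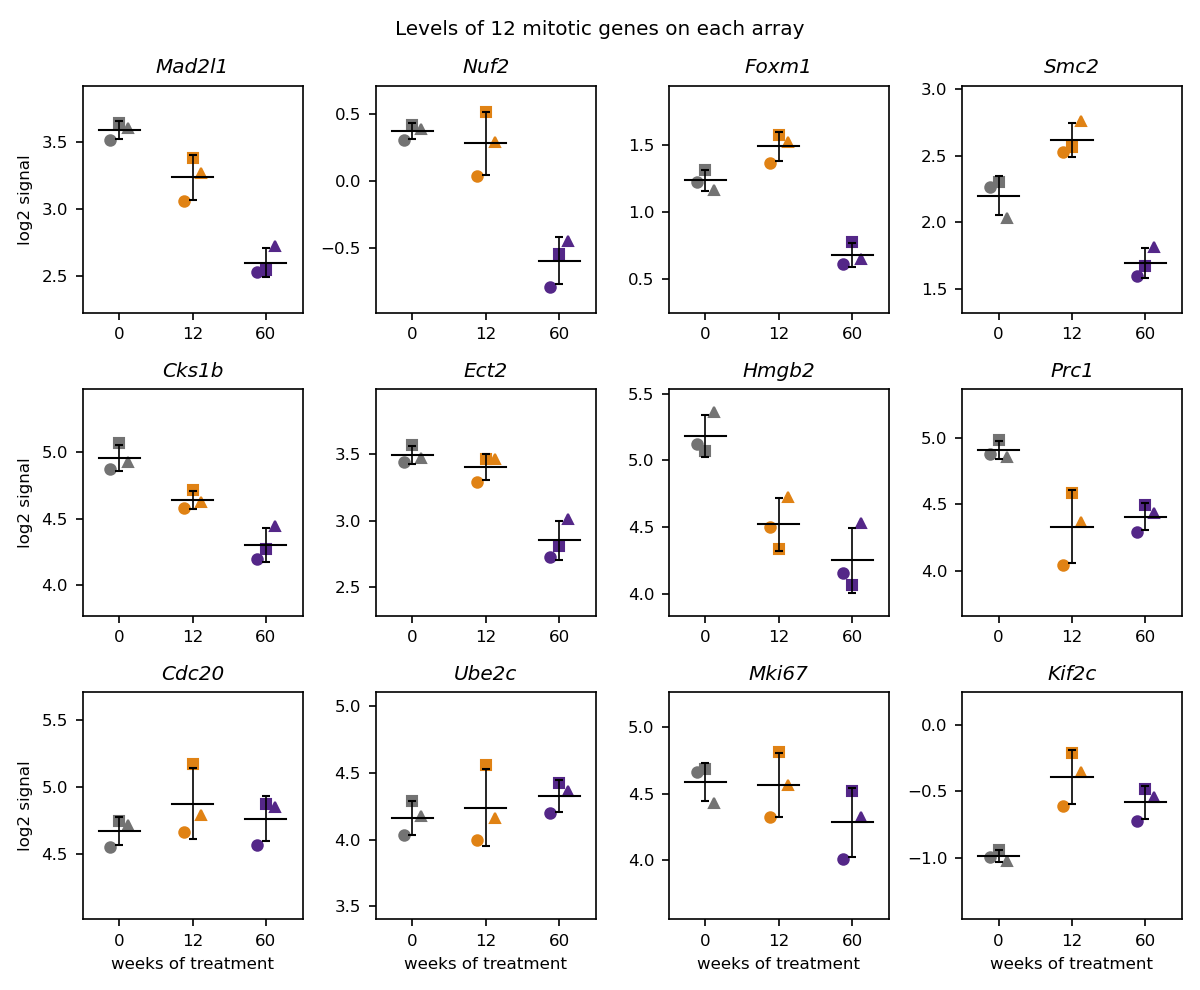
Log2 signal, relative to the array's 75th percentile, of 12 mitotic genes on each array at 0, 12 and 60 weeks. Circles, squares and triangles are replicates 1, 2 and 3, horizontal bars are means and error bars SD (n = 3), and every panel spans the same range of log2 units. Mad2l1 and Cks1b step down at both times, Foxm1 and Smc2 are highest at 12 and lowest at 60 weeks, Cdc20, Ube2c and Mki67 overlap between times, and Kif2c is higher at 12 and 60 weeks than at 0 weeks.

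At the kinetochore, Ndc80, Nuf2 and Spc25 are subunits of the NDC80 complex that grips microtubules. Cenpa is the centromeric histone, Cenpe a kinesin motor of chromosome alignment, and Cenpf a large protein of the outer kinetochore. Nuf2 read 0.31, 0.42 and 0.39 on the 0 weeks arrays, 0.04, 0.51 and 0.29 on the 12 weeks arrays, and -0.80, -0.55 and -0.45 on the 60 weeks arrays. The 60 weeks arrays were far below the rest, and the 12 weeks arrays spanned the 0 weeks ones. It fell by 0.97 ± 0.14 at 60 against 0 weeks (adjusted p = 0.00136), to 0.511 of the 0 weeks signal, and by 0.88 ± 0.14 at 60 against 12 weeks (adjusted p = 0.00235). Ndc80, which pairs with Nuf2 in one arm of the complex, read -0.14, -0.09 and -0.07 on the 0 weeks arrays, -0.13, 0.03 and 0.23 on the 12 weeks arrays, and -0.61, -0.52 and -0.36 on the 60 weeks arrays. It was lowest on the 60 weeks arrays too. The fall was 0.54 ± 0.12 at 60 against 12 weeks (adjusted p = 0.00833), and it fell by 0.40 ± 0.12 at 60 against 0 weeks (adjusted p = 0.0309). The call against 0 weeks ended without any 1 of the 3 arrays of 0 weeks or of replicates 1 and 2 of 60 weeks (adjusted p = 0.0689 to 0.111). Spc25, of the opposite arm, was at 0.04 at 60 against 0 weeks (95% interval -0.33 to 0.41), and Cenpa at 0.00 to 2 decimals (95% interval -0.35 to 0.35). Cenpf fell by 0.81 at 12 against 0 weeks (adjusted p = 0.0206), a call lost without any 1 of the 3 arrays of 0 weeks or of replicates 1 and 3 of 12 weeks (adjusted p = 0.053 to 0.0629).

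Kinesins and spindle proteins moved in both directions. Kif11 pushes spindle poles apart, Kif2c depolymerises microtubules at centromeres and corrects faulty attachments, Kif20a and Kif23 work with the bundling protein Prc1 at the spindle midzone, and Nusap1 and Hmmr bind spindle microtubules. Kif2c read -0.99, -0.94 and -1.02 on the 0 weeks arrays, -0.61, -0.21 and -0.36 on the 12 weeks arrays, and -0.72, -0.49 and -0.54 on the 60 weeks arrays. All 6 treated arrays lay above all 0 weeks arrays. Its rise was 0.59 ± 0.12 at 12 against 0 weeks (adjusted p = 0.00588) and 0.40 ± 0.12 at 60 against 0 weeks (adjusted p = 0.0366). The second call ended without any 1 of the 3 arrays of 0 weeks, of replicate 3 of 12 weeks or of replicates 2 and 3 of 60 weeks (adjusted p = 0.0531 to 0.107).

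Kif20a read 2.65, 2.83 and 2.73 on the 0 weeks arrays, 2.58, 3.06 and 2.65 on the 12 weeks arrays, and 2.05, 2.21 and 2.32 on the 60 weeks arrays. The 60 weeks arrays were below the overlapping 0 and 12 weeks arrays. It fell by 0.54 ± 0.14 at 60 against 0 weeks (adjusted p = 0.0214) and by 0.57 ± 0.14 at 60 against 12 weeks (adjusted p = 0.0165). The first ended without replicates 2 or 3 of 0 weeks or replicates 1 or 2 of 60 weeks (adjusted p = 0.0525 to 0.0795). The second gave an adjusted p of 0.0632 once replicate 1 of 60 weeks was left out. Prc1 read 4.88, 4.98 and 4.86 on the 0 weeks arrays, 4.04, 4.59 and 4.37 on the 12 weeks arrays, and 4.30, 4.50 and 4.43 on the 60 weeks arrays. Here the 12 and 60 weeks arrays overlapped and both lay below 0 weeks. It fell by 0.50 ± 0.14 at 60 against 0 weeks (adjusted p = 0.0272) and by 0.57 ± 0.14 at 12 against 0 weeks (adjusted p = 0.0125), and the 60 weeks call ended without any 1 of the 3 arrays of 0 weeks or of replicates 1 and 3 of 60 weeks (adjusted p = 0.0574 to 0.095). Kif11 fell by 0.50 at 12 against 0 weeks (adjusted p = 0.0362), which held without replicates 1 or 2 of 60 weeks and ended without any 1 of the other 7 arrays (adjusted p = 0.0507 to 0.125). Kif23, Nusap1 and Hmmr were at -0.06, -0.27 and -0.23 at 60 against 0 weeks and did not pass.

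Cytokinesis was represented by Ect2, the exchange factor that activates RhoA at the cell equator, by Racgap1, which recruits it as part of centralspindlin, and by anillin (Anln), a scaffold of the contractile ring. Ect2 read 3.44, 3.57 and 3.47 on the 0 weeks arrays, 3.29, 3.46 and 3.46 on the 12 weeks arrays, and 2.73, 2.81 and 3.02 on the 60 weeks arrays. The 60 weeks arrays stood below the others. It fell by 0.64 ± 0.11 at 60 against 0 weeks (adjusted p = 0.00246) and by 0.55 ± 0.11 at 60 against 12 weeks (adjusted p = 0.00497). Anln read 4.78, 4.75 and 4.63 on the 0 weeks arrays, 3.91, 4.38 and 4.04 on the 12 weeks arrays, and 4.12, 4.24 and 4.17 on the 60 weeks arrays. In contrast to Ect2, its 60 weeks arrays lay within the span of the 12 weeks arrays, and both groups were below 0 weeks. It fell by 0.54 ± 0.13 at 60 against 0 weeks (adjusted p = 0.0133) and by 0.61 ± 0.13 at 12 against 0 weeks (adjusted p = 0.00653), and the 60 weeks call ended without replicate 1 of 60 weeks (adjusted p = 0.0513). Racgap1 was at -0.29 in both comparisons against 0 weeks (adjusted p = 0.0794 at 60 weeks and 0.0666 at 12 weeks).

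Chromosome structure was represented by Mki67, the coat protein that keeps mitotic chromosomes apart and the usual proliferation marker, topoisomerase II alpha (Top2a), the condensin ATPases Smc2 and Smc4, and the chromatin protein Hmgb2. Mki67 read 4.66, 4.68 and 4.43 on the 0 weeks arrays, 4.32, 4.81 and 4.57 on the 12 weeks arrays, and 4.01, 4.52 and 4.32 on the 60 weeks arrays, with overlap between all groups. Its log2 fold change was -0.31 at 60 against 0 weeks (95% interval -0.70 to 0.08, adjusted p = 0.204). Top2a read 2.70, 2.71 and 2.44 on the 0 weeks arrays, 2.54, 2.90 and 2.90 on the 12 weeks arrays, and 2.33, 2.62 and 2.46 on the 60 weeks arrays. The groups overlapped again, and the log2 fold change was -0.15 at 60 against 0 weeks (95% interval -0.47 to 0.17, adjusted p = 0.442).

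Smc2 read 2.27, 2.30 and 2.03 on the 0 weeks arrays, 2.53, 2.56 and 2.76 on the 12 weeks arrays, and 1.60, 1.67 and 1.81 on the 60 weeks arrays. The 12 weeks arrays were above and the 60 weeks arrays below all 0 weeks arrays. It fell by 0.92 ± 0.12 at 60 against 12 weeks (adjusted p = 0.000733) and by 0.50 ± 0.12 at 60 against 0 weeks (adjusted p = 0.0116), and rose by 0.42 ± 0.12 at 12 against 0 weeks (adjusted p = 0.0208). The fall against 0 weeks missed the threshold once replicate 2 of 0 weeks was left out (adjusted p = 0.0507). The rise ended without replicate 3 of 0 weeks or replicate 3 of 12 weeks (adjusted p = 0.073 to 0.0755). Smc4, its partner in both condensins, fell by 0.51 ± 0.12 at 12 against 0 weeks (adjusted p = 0.00988), where Smc2 rose. Its fall of 0.36 ± 0.12 at 60 against 0 weeks (adjusted p = 0.0466) held without replicates 1 or 2 of 12 weeks and ended without any 1 of the other 7 arrays (adjusted p = 0.0546 to 0.157). Hmgb2 read 5.12, 5.07 and 5.36 on the 0 weeks arrays, 4.50, 4.33 and 4.73 on the 12 weeks arrays, and 4.16, 4.07 and 4.53 on the 60 weeks arrays. All treated arrays were below all 0 weeks arrays, and the treated groups overlapped. It fell by 0.93 ± 0.16 at 60 against 0 weeks (adjusted p = 0.00285), to 0.523 of the 0 weeks signal, and by 0.66 ± 0.16 at 12 against 0 weeks (adjusted p = 0.0112).

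The 44 genes shifted together between replicates of 1 group. On replicate 2 of 12 weeks, 36 of the 44 lay above both other arrays of that time, with a median of 0.36 above their mean, and on replicate 1 of 12 weeks 38 of 44 lay below both others, with a median of -0.30. On replicate 1 of 60 weeks 39 of 44 lay below both others (median -0.20). The medians of the other 6 arrays were -0.10 to 0.12, and those of all tested genes were -0.04 to 0.04 on every array. The median SD of the mitotic genes was 0.11 at 0 weeks, 0.24 at 12 weeks and 0.14 at 60 weeks, against 0.11, 0.21 and 0.15 over all tested genes, and it was 0.16 at 12 weeks without replicate 2. Across genes, replicate 2 of 12 weeks correlated with replicates 1 and 3 at 0.978 and 0.977, and those 2 with each other at 0.992. Whether the shifted arrays have a share in the 12 weeks calls was not tested beyond leaving each out.

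**Figure D4:**
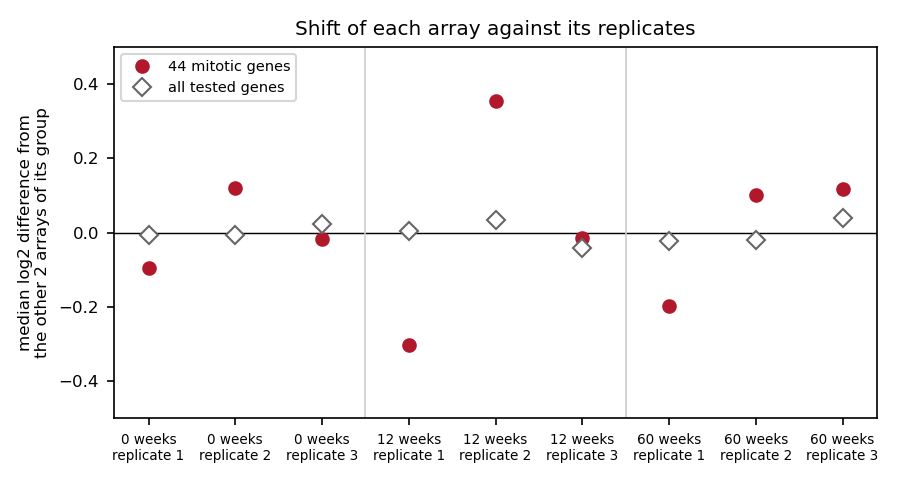
Median log2 difference of each array from the mean of the other 2 arrays of its group, for the 44 mitotic genes (filled circles) and all tested genes (open diamonds). The mitotic genes lie at -0.30 and 0.36 on replicates 1 and 2 of 12 weeks and at -0.20 on replicate 1 of 60 weeks, and all tested genes stay between -0.04 and 0.04.

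Arrays lay in rows of 2 slides. Row 1 of slide 1 held the 3 arrays of 0 weeks and replicate 1 of 12 weeks, row 2 held replicates 2 and 3 of 12 weeks and 1 and 2 of 60 weeks, and slide 2 held replicate 3 of 60 weeks. Within row 1, 37 of the 44 genes were lower on replicate 1 of 12 weeks than in the mean of 0 weeks, with a median of -0.27, against -0.05 and 53.1% lower over all tested genes. Within row 2, 37 of 44 were lower in the mean of 60 weeks than in that of 12 weeks, with a median of -0.35, against 0.02 and 48.0% of all tested genes. No row held both 60 and 0 weeks.

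Members on the same chromosome were read beside the median of all tested genes there. Kif2c, Cdca8 and Smc2, 3 of the 4 genes that rose at 12 weeks, and Cdc20 lie on chromosome 4, whose 921 tested genes had a median log2 fold change of 0.26 at 12 against 0 weeks and 0.21 at 60 against 0 weeks. With each chromosome's median taken off, the values at 12 against 0 weeks were 0.34 for Kif2c (adjusted p = 0.0587), 0.15 for Cdca8 (0.347) and 0.17 for Smc2 (0.292), and Kif2c was at 0.18 at 60 against 0 weeks (adjusted p = 0.304). Chromosome 10, with Cdk1, and chromosome 19, with Kif11 and Incenp, had medians of 0.28 and 0.37 at 60 against 0 weeks. With the medians taken off, Cdk1 and Kif11 passed at 60 against 0 weeks, at -0.46 (adjusted p = 0.027) and -0.66 (adjusted p = 0.0177). Incenp and Cdca8, above 0 at 60 against 0 weeks before, were then at -0.12 and -0.15 (adjusted p = 0.44 and 0.407). Bub3, Kif20a, Prc1 and Smc4 no longer passed there, at -0.21, -0.41, -0.37 and -0.28 (adjusted p = 0.0981, 0.062, 0.071 and 0.111). In the comparison of 12 against 0 weeks, Mad2l1, Cks1b and Kif11 also no longer passed, at -0.23, -0.22 and -0.47 (adjusted p = 0.137, 0.101 and 0.0504), and Foxm1 and Cenpe passed, at 0.38 and 0.43 (adjusted p = 0.0159 and 0.0397). The median of the 44 genes was then -0.23 at 60 against 0 weeks and 0.01 at 12 against 0 weeks.

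Of 80 further mitotic genes, 79 were tested. At 60 against 0 weeks 39 fell (49.4%, against 16.1% of all tested genes) and 3 rose (3.80%, against 16.7%), with a median log2 fold change of -0.42. At 12 against 0 weeks 15 fell and 7 rose, 27.8% against 41.8% of all tested genes, with a median of -0.01. At 60 against 12 weeks 36 fell (45.6%, against 17.6%) and 5 rose (6.33%, against 20.7%), with a median of -0.37. The 4 with the lowest adjusted p at 60 against 0 weeks were Cenpi, Cenph and Cenpk, subunits of the inner kinetochore network that sits on CENP-A chromatin, and Zwilch, a subunit of the RZZ complex that brings MAD1 and dynein to kinetochores. Their falls at 60 against 0 weeks were 1.17 ± 0.10, 1.21 ± 0.11, 1.21 ± 0.11 and 1.06 ± 0.11. limma's adjusted p was 0.000175 for Zwilch, the highest of the 4.

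Cenpi read 0.39, 0.43 and 0.41 on the 0 weeks arrays, 0.03, 0.22 and 0.22 on the 12 weeks arrays, and -0.83, -0.84 and -0.61 on the 60 weeks arrays, with no overlap between times. Over the list, leaving out single arrays gave 30 to 44 falls at 60 against 0 weeks. Slide row as a block gave 25, with a larger median log2 fold change of -0.74, again through sums of differences to arrays of 12 weeks. At 12 against 0 weeks the 22 calls were 14 without replicate 1 of 0 weeks and 13 without replicate 2 of 0 weeks.

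Of 16 tested subunits and regulators of the anaphase-promoting complex, 1 was called at 60 against 0 weeks (6.25%, against 32.8% of all tested genes). At an unadjusted limma p under 0.05 there were 7 of the 16, against 6140 of 14034 tested genes. Groups did not overlap for 9 of the 16 (56.25%, against 56.5% of all tested genes). The called gene was Fzr1 (CDH1), the activator that follows CDC20 at mitotic exit and in G1. It read 3.55, 3.50 and 3.54 on the 0 weeks arrays, 3.82, 3.97 and 3.86 on the 12 weeks arrays, and 4.10, 4.22 and 4.15 on the 60 weeks arrays, in steps upward without overlap. It rose by 0.63 ± 0.08 at 60 against 0 weeks (adjusted p = 0.000889) and by 0.35 ± 0.08 at 12 against 0 weeks (adjusted p = 0.0112). Of the 16, 4 rose and 3 fell at 12 against 0 weeks, and 5 rose and 1 fell at 60 against 12 weeks. These shares of 43.8% and 37.5% stand beside 41.8% and 38.3% of all tested genes. At 60 against 12 weeks 31.25% rose and 6.25% fell, against 20.7% and 17.6% of all tested genes. The 7 calls at 12 against 0 weeks were 3, 2 and 2 without replicates 1, 2 and 3 of 0 weeks, 3 and 1 without replicates 1 and 3 of 12 weeks, and 2 without replicate 1 of 60 weeks. The 6 calls at 60 against 12 weeks were 3 without replicate 1 or 3 of 12 weeks or any 1 array of 60 weeks. At 60 against 0 weeks there were 2 and 6 calls without replicates 1 and 2 of 12 weeks, and 0 with slide row as a block. That comparison gave 4 calls with normexp background correction and 5 with a trended and robust variance prior. It gave 5 with only the 2 groups compared and 8 with array weights.

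The 12 genes of MuvB, DREAM and B-Myb, the complexes that hold these promoters silent in G1 and open later, held 3 that fell and 0 that rose at 60 against 0 weeks: Rbl1 (p107), by 1.12 ± 0.17, the MuvB subunit Lin9, by 0.53 ± 0.10, and Tfdp2, an E2F partner, by 1.14 ± 0.24 (adjusted p = 0.00177, 0.00543 and 0.00815). Mybl2, the B-Myb factor that binds MuvB before Foxm1 does, read 2.46, 2.48 and 2.67 on the 0 weeks arrays, 3.39, 3.11 and 3.51 on the 12 weeks arrays, and 1.95, 1.78 and 2.36 on the 60 weeks arrays. It was highest at 12 and lowest at 60 weeks with no overlap. It fell by 1.31 ± 0.17 at 60 against 12 weeks (adjusted p = 0.000837), rose by 0.80 ± 0.17 at 12 against 0 weeks (adjusted p = 0.00633) and was at -0.51 at 60 against 0 weeks (adjusted p = 0.0506). Of the 12 genes, 5 fell and 0 rose at 60 against 12 weeks, and 2 fell and 3 rose at 12 against 0 weeks. The falls at 60 against 12 weeks were 41.7% of the list, where 17.6% of all tested genes were lower and 20.7% higher. The share called was 25% at 60 against 0 weeks, against 32.8% of all tested genes. The share was 41.7% in each of the other comparisons, against 38.3% of all tested genes at 60 against 12 weeks and 41.8% at 12 against 0 weeks. The last 5 calls were 2 without replicate 1 or 2 of 0 weeks or replicate 3 of 12 weeks, and 3 without replicate 3 of 0 weeks or replicate 1 of 12 weeks. The 3 calls at 60 against 0 weeks were 6 without replicate 2 of 12 weeks and 0 with slide row as a block.

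Of 12 genes of cohesin, the ring that holds sister chromatids together, 2 fell and 1 rose at 60 against 0 weeks. The core subunit Smc1a fell by 0.48 ± 0.09 and the acetyltransferase Esco2, which makes cohesion lasting, by 0.68 ± 0.13 (adjusted p = 0.00366 and 0.0052). Wapl, which removes cohesin from chromatin, rose by 0.46 ± 0.10 at 60 against 0 weeks (adjusted p = 0.00809) and by 0.88 ± 0.10 at 12 against 0 weeks (adjusted p = 0.000254). Of the 12 genes, 5 fell and 2 rose at 60 against 12 weeks, and 3 fell and 3 rose at 12 against 0 weeks. At 60 against 12 weeks 41.7% fell and 16.7% rose, against 17.6% and 20.7% of all tested genes. The share called was 25% at 60 against 0 weeks, against 32.8% of all tested genes. The share was 58.3% at 60 against 12 weeks, against 38.3%, and 50% at 12 against 0 weeks, against 41.8%. Calls at 60 against 12 weeks were 4 without replicate 3 of 12 weeks or replicate 1 or 3 of 60 weeks. Those at 12 against 0 weeks were 3 without replicate 2 or 3 of 0 weeks or replicate 3 of 12 weeks. At 60 against 0 weeks there were 6 calls without replicate 2 of 12 weeks, and 2 with slide row as a block. With each chromosome's median taken off, 4 fell and 0 rose in that comparison, so the rise of Wapl there no longer passed.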

How the data were processed

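RNA from 9 samples of mouse colon organoids, 3 at each time, was labelled with Cy3 and hybridised to Agilent arrays, per the labels' protocols. Spots were quantified by the authors with version 10.7.3.1 of Agilent Feature Extraction (protocol GE1_107_Sep09), per the file headers. The deposited scanner files hold an intensity per spot, background-subtracted on a linear scale and not scaled between arrays. The authors' deposited value table gives a signal on 42530 of 55681 non-control probes. Its scale is linear, each column equals that array's intensities over a single constant at 0.993 to 0.999 of the 75th percentile, no centring was found, and their medians were 0.0668, 0.0719 and 0.0705 for 0 weeks, 0.0619, 0.0681 and 0.0733 for 12 weeks, and 0.0673, 0.0695 and 0.0582 for 60 weeks.

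From the scanner files, flagged spots were dropped (117 to 163 of 59305 per array, with 0 saturated), each probe's spots were averaged, and the log2 of each array's 75th percentile was subtracted from log2 signals. Probes well above background on at least 2 of 3 arrays of a group were kept. Names came from RefSeq accessions in the GRCm38.p6 annotation (27235 probes with 1 symbol, 0 with several, 28446 with none), and the probe with the highest mean stood for its gene. Group means over 9 arrays were fitted with limma 3.58.1 in R 4.3.3 without a block, and 3 comparisons were tested two-sided over 14034 genes. The fit was checked on simulated data in which genes and arrays varied independently. That check does not cover shifts of many genes together on an array. Described genes are Mki67, Top2a, Foxm1, Ccnb1, Cdk1, the 2 members per role group with the lowest adjusted p at 60 against 0 weeks and members called against the majority of a comparison's called members, with up to 4 genes per further list in order of that p. The members, lists and alternatives were chosen with earlier results of these data known. One leukocyte marker is not reported here by name. Precision is limited by 3 arrays per group.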

Additional observations from a re-analysis of the deposited data

How the results depend on the processing

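Over 23 alternatives, 0 of the called values changed sign, and calls ended in up to 13 of them. Nuf2 and Ndc80 were run in 22, since the deposited value table gave no value for them. Calls that held in every alternative run were those of Hmgb2, Prc1, Anln and Smc4 at 12 against 0 weeks, of Mad2l1, Ttk, Nuf2, Ect2 and Cks1b at 60 against 0 weeks, and of Aurka, Mad2l1, Nuf2, Ndc80, Ect2, Birc5, Smc2 and Foxm1 at 60 against 12 weeks.

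At 12 against 0 weeks, the count of 13 was 8 with no filter on dim probes, 8 with slide row as a block, 21 with array weights, and 5 to 16 with single arrays left out. At 60 against 0 weeks, the count of 17 was 6 with the row block, where 9.92% of all tested genes were called, 28 with array weights, and 11 to 19 with single arrays left out. At 60 against 12 weeks, the count of 12 was 24 with array weights and 9 to 16 with single arrays left out. The cause was not tested.

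The labels state no pairing of samples by replicate number. Deviations of samples with the same number correlated at -0.08 to 0.20, which with 3 arrays per group cannot exclude a pairing. With the replicate number as a block the counts were 15, 18 and 15. The slide block repeats the fit without replicate 3 of 60 weeks, which is alone on its slide. The files hold no mean spot signal, so the normexp alternative used the median spot signal. Aurkb lay near background, which limits what its values show.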
